A study of Caenorhabditis elegans with 12 samples.

Results

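The htp-3 mutant strain was compared with the wild type N2 of Caenorhabditis elegans at day 1 of adulthood. The comparison covers the genes with at least 1 TPM (transcript level corrected for exon length and scaled to a fixed total per library) in 3 or more of the 6 libraries. Of the 20222 genes listed, 11350 (56.1%) met this rule. The mutant strain, TY4986, carries the allele y428 of htp-3, and no other allele is named in the labels of either strain. Since the mutation was present in a single strain, its effect cannot be told apart from other differences between TY4986 and N2. The study also held the strains AV477, with dsb-2(me96), and AV157, with spo-11(me44), which are used here only to show where htp-3 animals differ. Each strain had 3 libraries of polyadenylated RNA from whole animals kept at 20 °C on the E. coli strain OP50 and picked as L4 larvae.

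HTP-3 belongs to the HORMA-domain proteins, which form the axis along each meiotic chromosome. In worms the axis holds sister chromatids in order, is needed for the programmed DNA breaks that start recombination, and carries the synaptonemal complex that zips homologous chromosomes together. The adult hermaphrodite gonad holds dividing stem cells at one end, germ cells in meiosis along its length and growing oocytes near the spermatheca, so a large part of the RNA of a whole adult comes from the germline. The study asked how meiotic mutants differ from wild type in somatic ageing.

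Levels are given in TPM for replicates 1, 2 and 3 in that order. Differences are htp-3 minus N2 on the log2(TPM + 1) scale with their standard error, a scale on which changes at low levels appear smaller than they are. Adjusted p-values come from limma over the 11350 genes, and "rose" and "fell" are used for genes with an adjusted p under 0.05.

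The transcript of the mutated gene itself (chromosome I, 4827072 to 4829794) was lower in every htp-3 library. Its level was 6.67, 12.3 and 9.52 TPM in htp-3 replicates 1 to 3 and 77.9, 69.2 and 67.9 TPM in the N2 replicates. The groups did not overlap, and the difference was -2.82 ± 0.21, adjusted p = 4.0e-07. The dsb-2 strain had a mean of 97.8 TPM and the spo-11 strain 31.3 TPM, so htp-3 was lowest in the strain that carries its mutation (htp-3 minus spo-11 -1.64, adjusted p = 2.7e-05). Transcripts of the other mutated genes of the series behaved differently: dsb-2, which promotes break formation, was at 21.2, 42.1 and 35.2 TPM against 57.6, 62.5 and 55.4 TPM in N2 (-0.87 ± 0.21, adjusted p = 0.0027), while spo-11, the enzyme that makes the breaks, was at 27.1, 40.8 and 53.7 TPM against 29.6, 45.9 and 24.5 TPM in N2 with overlapping groups (0.27 ± 0.26, adjusted p = 0.36).

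Depth was similar between the groups, with 36250956 to 38473833 mapped reads in the htp-3 libraries and 37621656 to 42378902 in N2. The first principal component of the 6 libraries held 80.1% of the variance and separated the strains. Replicate 2 of htp-3 lay nearer to N2 than the other htp-3 libraries did, at 31.2 on this component against 62.5 and 57.9, with N2 between -62.4 and -40.05. Among the genes that fell, replicate 2 was the htp-3 library closest to the N2 mean for 80.5%. Its median distance from N2 over these genes was -0.41 on the log2 scale, against -1.06 in replicate 1 and -0.68 in replicate 3. Among the genes that rose it was the closest for 60.8%. Replicates 1 and 2 also shared 46 genes of at least 1 TPM that were under 0.1 TPM in htp-3 replicate 3 and in every N2 library, and the corresponding count was 0 for the other pairs of htp-3 libraries. The insulin-like gene ins-31, at 17.2, 5.16 and 0 TPM, and the C-type lectin clec-197, at 16.3, 5.14 and 0.0939 TPM, were among them. In sum these genes came to 285 TPM in replicate 1 and 98.3 TPM in replicate 2. None of the 46 met the rule of 3 libraries, so none entered a test. Whether they come from the animals collected or from the libraries was not tested, and values of htp-3 replicates 1 and 2 carry this doubt. The gene just inside that rule, Y97E10AR.1, reached 1.00 TPM in the third of its libraries by level, with 1.56, 1.00 and 1.44 TPM in htp-3. The gene just outside, F48E3.6, reached 0.99978 TPM there, with 0.99978, 1.83 and 1.15 TPM in htp-3.

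In the htp-3 strain 4706 genes were higher than in N2 (41.5% of the genes tested) and 2729 were lower (24%). Every count of rises and falls in a gene list below stands beside these shares. The size of the change was unequal between the directions: 2798 genes rose by at least 2-fold (24.7%) and 277 fell by at least 2-fold (2.44%). All 3 htp-3 libraries lay above all 3 N2 libraries for 4773 genes (42.1%) and below them for 2725 (24%). The largest rise was 6.07 on the log2 scale and the largest fall was -3.41. Of the genes tested, 778 reached 1 TPM in no N2 library and 12 in no htp-3 library, so these entered through a single group. Among the 3026 genes with a mean under 5 TPM, 70.8% rose and 2.64% fell, and 764 of them entered through htp-3 alone. Over the 2251 genes of that class with 1 TPM or more in libraries of both strains, 61.9% rose and 3.11% fell. Of the 2944 genes between 50 and 500 TPM, all of which entered through both strains, 15.1% rose and 51.9% fell.

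The balance between directions depended on the scaling. With TPM as deposited the median gene changed by 0.20 on the log2 scale. After median-of-ratios scaling, which divides each library by its median ratio to the average library over genes detected in all 12, the median was -0.17, and 3716 genes were called higher (32.7%) and 4748 lower (41.8%). Higher calls then made up 43.9% of all calls, against 63.3% with TPM. All 2729 falls by TPM were also falls under that scaling, and 3716 of the 4706 rises were also rises. No gene called higher under one scaling was called lower under the other. In whole animals, fewer cells of a type and less RNA per cell cannot be told apart, and this holds for every tissue and germline group described here.

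**Figure D1:**
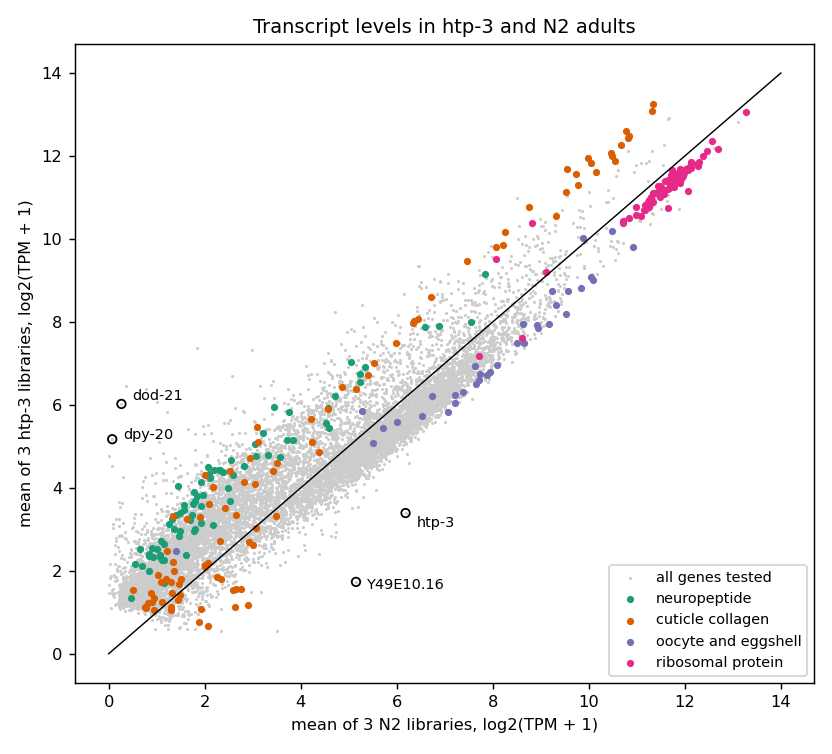
Mean transcript level of each of the 11350 genes in the 3 N2 libraries (x axis) and the 3 htp-3 libraries (y axis), both as log2(TPM + 1), with 4 gene lists in colour and the line of equal level in black. Genes of low level lie mostly above the line, neuropeptide and most abundant collagen genes lie above it, and oocyte and eggshell genes lie mostly below it, with htp-3 and Y49E10.16 far below.

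The genes with the largest rises were near zero in N2 and well expressed in htp-3. Y68A4A.13 (chromosome V, 17207352 to 17208116) stood at 123, 79.2 and 58.8 TPM in htp-3 replicates 1 to 3 and 0.157, 0.702 and 0 TPM in the N2 replicates (6.07 ± 0.48, adjusted p = 6.2e-07). T26H5.9 (chromosome V, 15444916 to 15445420) was at 234, 139 and 122 TPM against 4.54, 1.73 and 1.50 TPM in N2 (5.57 ± 0.41, adjusted p = 3.8e-07), and B0024.4 was at 121, 45.3 and 81.3 TPM against 0.467, 1.34 and 0.357 TPM in N2 (5.53 ± 0.35, adjusted p = 1.4e-07). No function is given for these genes in the files. They were picked among genes whose groups do not overlap. Of the genes in this paragraph, Y68A4A.13, dod-21, C32H11.9 and T26H5.14 reached 1 TPM in no N2 library. Those genes entered the test through htp-3 alone, so their p-values are not independent of that choice. Genes of the immune effector list were also among the largest rises, and dod-21 rose by more than T26H5.9 and B0024.4. This gene downstream of the longevity factor DAF-16 was at 46.6, 78.00 and 67.4 TPM against 0.0842, 0.314 and 0.206 TPM in N2 (5.73 ± 0.26, adjusted p = 2.0e-09), and dct-17 was at 77.1, 64.1 and 55.8 TPM against 0.507, 1.34 and 1.14 TPM in N2 (5.08 ± 0.23, adjusted p = 2.0e-09). The insulin-like peptide gene ins-7, an agonist of the DAF-2 receptor, was at 97.5, 33.2 and 37.2 TPM against 1.68, 1.34 and 0.951 TPM in N2 (4.45 ± 0.46, adjusted p = 5.0e-06), with replicate 1 the highest. The cytochrome P450 gene cyp-13A5 was at 26.1, 56.1 and 29.6 TPM against 0.826, 1.57 and 0.757 TPM in N2 (4.16 ± 0.37, adjusted p = 1.5e-06). Several of the strongest risers were neighbours. C32H11.9, dod-21 and dod-24 lie within chromosome IV, 12935011 to 12941405, and C32H11.9 was listed at 0 in all N2 libraries against 21.8, 29.9 and 27.1 TPM in htp-3. T26H5.9 and T26H5.14 lie within 10000 bases of each other on chromosome V, as do tsp-1 and tsp-2 on chromosome III and clec-67 and clec-70 on chromosome IV. In all, 9 of 52 genes that rose by at least 3 on the log2 scale to at least 5 TPM lay within 10000 bases of another such gene, in 4 clusters. The share of such pairs among other genes was not counted. The genes dod-24, tsp-1, tsp-2 and clec-70 are named because of their position, after their values were seen.

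The gene dpy-20 (chromosome IV, 11696443 to 11699895), needed for normal cuticle and body shape, differed from the other strong risers in spo-11 animals. Its level was 28.6, 37.9 and 38.8 TPM in htp-3 replicates 1 to 3 and 0.0185, 0.103 and 0.0338 TPM in the N2 replicates (5.09 ± 0.15, adjusted p = 2.3e-11). The htp-3 libraries were close to each other and far from N2, and dpy-20 entered the test through htp-3 alone. The labels give no genotype for TY4986 beyond the htp-3 allele, so a level set by htp-3 cannot be told apart from one set by another element of the strain, such as a marker or balancer. The mean was 0.0232 TPM in dsb-2 and 0.259 TPM in spo-11, and the direct contrasts were large (htp-3 minus dsb-2 5.13, adjusted p = 2.1e-11; htp-3 minus spo-11 4.83, adjusted p = 5.0e-11). Among the 15 strongest rises, 14 were also called higher than N2 in spo-11 animals and 0 in dsb-2 animals. The exception in spo-11 was dpy-20. The 15 were picked for their distance from the same N2 libraries, so these counts are not independent of that choice. The shares of all genes called in those strains against N2 were not counted, so the counts have no share to stand beside. A missing call in dsb-2 does not show that a gene was unchanged there. When the strains were set against each other directly, all 15 were higher in htp-3 than in dsb-2, 7 were higher in htp-3 than in spo-11, and 5 were lower in htp-3 than in spo-11. Over all genes tested, 43.5% were higher in htp-3 than in dsb-2. Against spo-11, 9.12% were higher and 27% lower. The 15 were picked for high values in the htp-3 libraries, which the direct contrasts use again. These counts and the contrasts of dpy-20 are therefore not independent of that choice.

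Histone genes made up 11 of the 15 largest falls. Core histones package newly replicated DNA. On chromosome IV, his-62 was at 4.50, 5.51 and 8.46 TPM against 27.02, 23.7 and 20.7 TPM in N2 (-1.82 ± 0.27, adjusted p = 8.6e-05) and his-48 at 6.60, 9.99 and 15.4 TPM against 36.4, 34.1 and 35.6 TPM in N2 (-1.71 ± 0.29, adjusted p = 2.2e-04). On chromosome I, his-68 was at 16.5, 29.5 and 23.1 TPM against 94.2, 64.3 and 67.7 TPM in N2 (-1.68 ± 0.22, adjusted p = 3.2e-05). Of 57 histone genes tested among 80 listed, 25 fell and 13 rose, beside 24% and 41.5% of all genes. The direction differed between genomic locations, with 16 of 21 genes on chromosome IV and 3 of 3 on chromosome I lower, and 6 of 9 on chromosome II higher. The 18 on chromosome V were mixed, 5 lower and 4 higher, and of 5 on X 3 were higher and 1 lower. The rises included his-71, an H3.3 variant made outside S phase, at 71.5, 51.2 and 69.1 TPM against 19.7, 19.9 and 28.5 TPM in N2 (1.46 ± 0.19, adjusted p = 3.8e-05), and his-41 at 96.1, 90.8 and 93.1 TPM against 36.3, 45.3 and 45.97 TPM in N2 (1.12 ± 0.15, adjusted p = 3.1e-05). Many histone copies are nearly identical and most of their transcripts lack the poly(A) tail on which these libraries were selected, so single copies are uncertain: his-46 was at 4.59, 0 and 15.3 TPM in htp-3, a wide spread, against 23.9, 30.4 and 22.4 TPM in N2 (-2.55 ± 0.67, adjusted p = 0.0041).

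The largest fall of all was Y49E10.16 (chromosome III, 12430430 to 12433892), a gene of no stated function in the files, at 2.49, 1.97 and 2.51 TPM against 30.6, 41.2 and 31.7 TPM in N2 (-3.41 ± 0.18, adjusted p = 1.4e-08). Spo-11 animals had a mean of 75.8 TPM, so the difference from them was larger still (htp-3 minus spo-11 -4.53, adjusted p = 3.3e-10). The major sperm protein gene msp-40 was at 0.436, 0.153 and 0.835 TPM against 3.56, 7.90 and 19.8 TPM in N2 (-2.71 ± 0.48, adjusted p = 2.8e-04), against a mean of 346 TPM in spo-11. It entered the test through N2 alone.

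**Figure D2:**
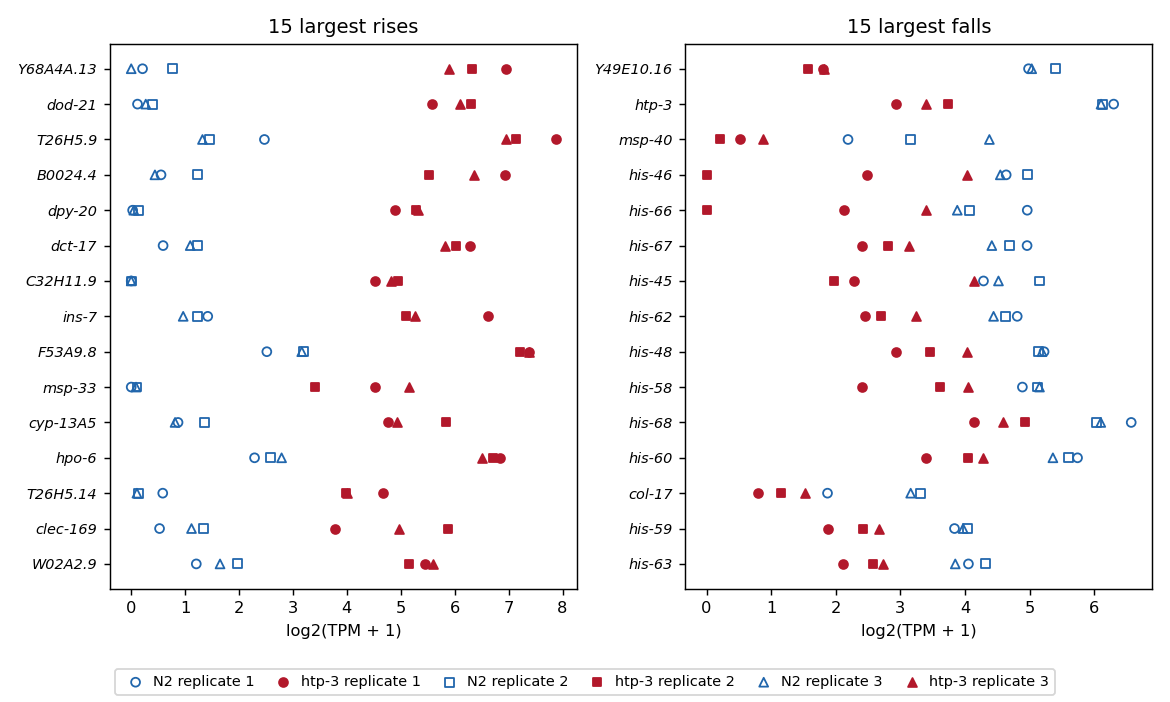
Transcript level as log2(TPM + 1) in each library (x axis) of the 15 genes with the largest rises (left) and falls (right) in htp-3 among genes picked for groups that do not overlap and at least 5 TPM in the higher group, ordered by fold change (y axis). Red filled symbols are htp-3 libraries and blue open symbols are N2 libraries. The falls span a smaller distance than the rises.

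Genes of the meiotic machinery fell together with htp-3, by smaller amounts. Of 16 axis and cohesin genes, 11 fell and 0 rose, with a median of -0.65 against 0.20 over all genes. Of all genes tested 24% fell, or 41.8% under median-of-ratios scaling, and the counts of falls in the germline lists stand beside these shares. The share rose with level. Of genes with a mean of 5 to 50 TPM 19.9% fell, or 42.3% under that scaling. Between 50 and 500 TPM 51.9% fell, or 75.8%. No list was matched by level, so falls in lists with many genes of 50 to 500 TPM cannot be told apart from that share. The axis protein gene him-3, whose product binds HTP-3, was at 79.1, 117 and 119 TPM against 195, 189 and 159.7 TPM in N2 (-0.80 ± 0.17, adjusted p = 0.001). Its close relative htp-1 was at 117, 129 and 131 TPM against 207, 175 and 186 TPM in N2 (-0.59 ± 0.13, adjusted p = 0.0014). The htp-3 libraries lay below the N2 libraries in both, which were picked for a small p, as they did for 24% of all genes. The checkpoint ATPase gene pch-2, which remodels HORMA-domain proteins, was at 22.6, 49.04 and 37.4 TPM against 67.7, 72.2 and 56.9 TPM in N2 (-0.89 ± 0.22, adjusted p = 0.0029). Cohesin subunit genes fell less evenly: coh-3 was at 12.5, 21.7 and 15.98 TPM against 29.8, 31.5 and 28.8 TPM in N2 (-0.84 ± 0.22, adjusted p = 0.004), while the meiotic kleisin gene rec-8 did not pass (-0.61, adjusted p = 0.056).

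Among genes for break formation 7 of 11 fell and 0 rose (median -0.84). The chromatin factor gene him-17 was at 29.5, 54.6 and 37.8 TPM against 78.8, 82.6 and 67.8 TPM in N2 (-0.93 ± 0.20, adjusted p = 9.9e-04), and dsb-1, which acts with dsb-2, was at 44.3, 68.1 and 53.2 TPM against 99.8, 81.6 and 88.2 TPM in N2 (-0.71 ± 0.18, adjusted p = 0.0029). The nuclease gene mre-11 was at 20.1, 45.9 and 29.6 TPM against 58.5, 64.5 and 51.4 TPM in N2 (-0.92 ± 0.24, adjusted p = 0.0042). Neither spo-11 nor rad-50 was lower: rad-50 was at 5.63, 21.3 and 15.5 TPM against 4.11, 16.5 and 4.38 TPM in N2, with the groups overlapping (0.78 ± 0.49, adjusted p = 0.17). In the homolog pairing list 13 of 14 genes fell and 0 rose (median -0.85). It includes the nuclear envelope protein gene sun-1, at 46.9, 81.6 and 62.3 TPM against 136, 130.1 and 123 TPM in N2 (-1.05 ± 0.18, adjusted p = 2.0e-04), and the pairing centre protein gene zim-3, at 21.4, 39.9 and 27.4 TPM against 60.6, 58.5 and 52.4 TPM in N2 (-0.97 ± 0.20, adjusted p = 9.6e-04). The F-box protein gene prom-1, which promotes meiotic entry and pairing, was at 17.1, 36.7 and 25.4 TPM against 67.7, 62.3 and 59.4 TPM in N2 (-1.29 ± 0.24, adjusted p = 4.2e-04).

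Crossover genes showed 11 falls and 0 rises among 18 (median -0.65). The cyclin-like gene cosa-1, whose product marks crossover sites, was at 9.83, 19.4 and 13.2 TPM against 36.9, 31.6 and 34.7 TPM in N2 (-1.27 ± 0.22, adjusted p = 2.1e-04), and D1081.9, now named zhp-2 for a RING-finger protein of the synaptonemal complex, was at 13.1, 29.1 and 19.03 TPM against 49.6, 49.7 and 46.4 TPM in N2 (-1.28 ± 0.23, adjusted p = 2.7e-04). Both were picked for a small p and had every htp-3 library below every N2 library, beside 24% of all genes. The MutS homologue gene msh-5 did not pass, at 5.26, 15.1 and 9.46 TPM against 6.75, 13.8 and 5.74 TPM in N2 with overlapping groups (0.15 ± 0.38, adjusted p = 0.74). Of 10 synaptonemal complex genes 6 fell and 0 rose: the central region gene syp-2 was at 56.9, 71.6 and 73.8 TPM against 123, 115 and 125 TPM in N2 (-0.84 ± 0.15, adjusted p = 3.4e-04), whereas syp-1 (-0.42, adjusted p = 0.11) and syp-3 (-0.25, adjusted p = 0.31) did not pass.

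Recombinational repair and checkpoint genes were lower in 24 of 30 cases and higher in 0 (median -0.71). They include the mismatch recognition gene msh-2, at 41.9, 69.6 and 47.3 TPM against 115, 95.6 and 107 TPM in N2 (-1.02 ± 0.18, adjusted p = 3.0e-04), the single-strand binding protein gene rpa-1, at 92.2, 157 and 122 TPM against 233, 228 and 214 TPM in N2 (-0.89 ± 0.17, adjusted p = 4.1e-04), and brd-1, partner of the BRCA1 orthologue, at 13.01, 25.1 and 16.97 TPM against 43.01, 40.4 and 35.5 TPM in N2 (-1.11 ± 0.21, adjusted p = 4.3e-04). The apoptosis genes that run germ cell death also fell: ced-3, the caspase, was at 35.5, 74.02 and 45.9 TPM against 86.8, 93.7 and 92.9 TPM in N2 (-0.87 ± 0.22, adjusted p = 0.0031), and ced-9, the BCL2-like protein that holds it in check, at 57.8, 81.4 and 67.00 TPM against 141, 124 and 114 TPM in N2 (-0.88 ± 0.16, adjusted p = 3.5e-04). The damage-induced trigger egl-1 was at 0.538, 1.004 and 1.25 TPM against 2.81, 2.12 and 1.53 TPM in N2 (-0.71 ± 0.29, adjusted p = 0.044), and its call was lost without replicate 1 or replicate 2 of either strain (adjusted p from 0.063 to 0.17). The egl-1 call was lost as well with no filter on level, with a pseudocount of 5, and with limma-voom on rebuilt reads. In this list 11 of 21 genes tested fell and 2 rose, or 1 under median-of-ratios scaling. The engulfment receptor gene ced-1 did not pass, at 15.8, 25.1 and 18.9 TPM against 9.62, 19.7 and 9.96 TPM in N2 (0.62 ± 0.30, adjusted p = 0.08).

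In the axis, break, pairing, crossover, synaptonemal complex and repair lists the size of the fall differed between the htp-3 libraries, in the order replicate 1, replicate 3, replicate 2. Leaving out replicate 1 left 7 falls in the axis list, 3 in the synaptonemal complex list, 7 in the crossover list, 13 in the repair list and 7 in the apoptosis list, and median-of-ratios scaling gave 17 in the crossover list. The synaptonemal complex list also went to 3 falls without htp-3 replicate 3 or without N2 replicate 2. Against dsb-2, meiotic genes were lower in htp-3 as well, with 13 falls of 16 in the axis list and 13 of 14 in the pairing list, beside 28% of all genes tested. Against spo-11 few differed by TPM: 2 of 16 axis genes and 0 of 14 pairing genes were lower, beside 27% of all genes. Both contrasts are given by TPM alone and would move with the scaling.

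Genes of the wider germline followed the same direction. Of 34 oocyte and eggshell genes tested 28 fell and 1 rose (median -1.08), beside 24% and 41.5% of all genes. The translational repressor gene puf-5 was at 191, 424 and 259.7 TPM against 829, 689.5 and 695 TPM in N2 (-1.41 ± 0.23, adjusted p = 1.7e-04). The egg surface protein gene egg-1, needed for fertilisation, was at 154, 350.1 and 235 TPM against 634, 605 and 497 TPM in N2 (-1.30 ± 0.22, adjusted p = 1.8e-04), and cpg-2, an eggshell chondroitin proteoglycan, was at 618, 1228 and 818 TPM against 2110.4, 1978 and 1683 TPM in N2 (-1.17 ± 0.19, adjusted p = 1.8e-04). Replicate 2 of htp-3 was the highest htp-3 library in all of these. For the yolk receptor gene rme-2 it reached 146, 398 and 188 TPM in the order of replicates, against 498, 487 and 466 TPM in N2, and the eggshell gene cbd-1 was at 271, 683 and 322 TPM against 687, 687 and 896 TPM in N2, where replicate 2 lay just under the lowest N2 library and the call was lost without htp-3 replicate 1 (adjusted p = 0.066); both are named after their values were seen. The single rise in the list was ceh-18, a homeobox gene of the somatic gonadal sheath (1.07, adjusted p = 5.8e-04).

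P granules are the RNA condensates of germ cells, and 17 of 20 of their genes fell while 0 rose (median -0.90). The RNA helicase partner gene car-1 was at 469.6, 932 and 542 TPM against 1144, 1276 and 1352 TPM in N2 (-1.02 ± 0.20, adjusted p = 6.9e-04) and the core component gene pgl-1 was at 109.8, 216 and 132 TPM against 282, 275 and 268 TPM in N2 (-0.91 ± 0.21, adjusted p = 0.0021). Stem cell and meiotic entry genes split: 12 of 20 fell and 0 rose, and leaving out htp-3 replicate 1 left 7. The niche signalling target lst-1 was at 36.7, 60.04 and 43.7 TPM against 99.4, 85.8 and 84.8 TPM in N2 (-0.95 ± 0.19, adjusted p = 7.2e-04). The Notch receptor gene glp-1 was at 15.6, 50.5 and 31.4 TPM against 27.9, 41.8 and 30.2 TPM in N2, with the groups overlapping (-0.16 ± 0.40, adjusted p = 0.74).

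Most genes for DNA replication and cell division fell, 34 of 38 and 45 of 52, with 0 rises in each (medians -0.77 and -0.82). Leaving out 1 library gave 26 to 34 falls in the replication list and 38 to 49 in the division list. Both counts were lowest without htp-3 replicate 1. The ribonucleotide reductase gene rnr-2 was at 392, 512 and 460.2 TPM against 1159.7, 836 and 791 TPM in N2 (-1.02 ± 0.17, adjusted p = 1.9e-04). The cyclin B gene cyb-2.2 was at 102, 181 and 161 TPM against 381, 335 and 341 TPM in N2 (-1.29 ± 0.18, adjusted p = 4.7e-05), and the anaphase-promoting complex gene emb-27 was at 26.4, 46.8 and 32.6 TPM against 92.5, 85.9 and 81.2 TPM in N2 (-1.31 ± 0.18, adjusted p = 5.5e-05). The katanin subunit gene mei-2, which acts on the meiotic spindle of the oocyte, was at 105, 167 and 136 TPM against 323, 273 and 309.8 TPM in N2 (-1.16 ± 0.16, adjusted p = 4.3e-05).

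**Figure D3:**
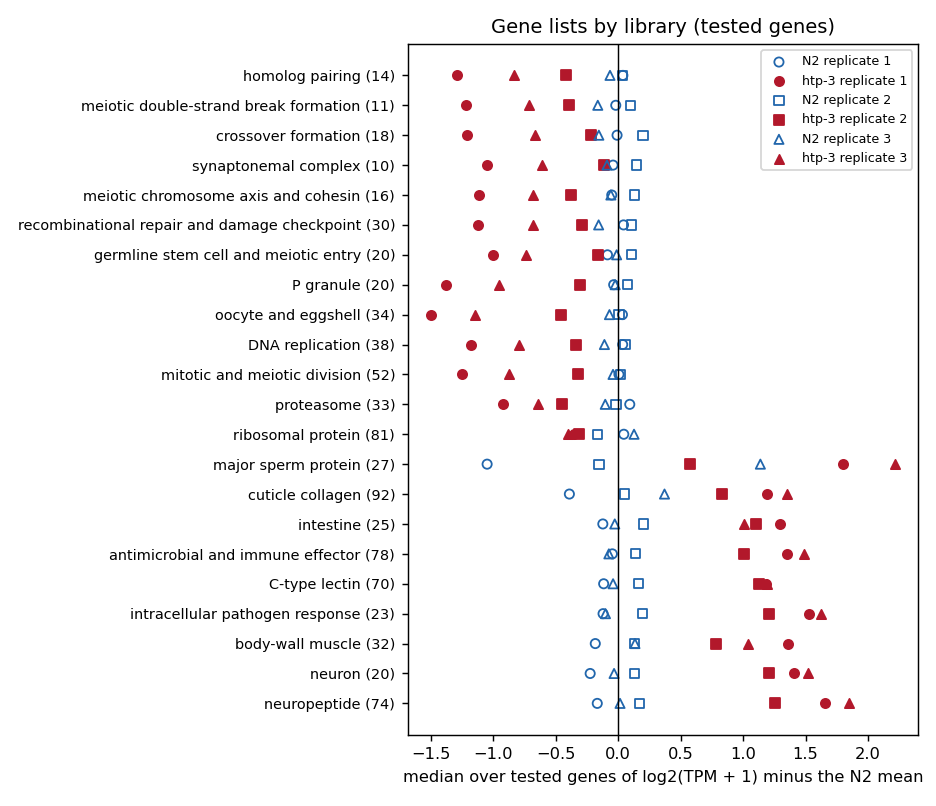
For 22 gene lists (y axis, number of tested genes in brackets), the median over tested genes of the level in each library minus the N2 mean, in log2(TPM + 1) units (x axis). Red filled symbols are htp-3 libraries and blue open symbols are N2 libraries; in the germline lists at the top htp-3 replicate 2 (square) lies nearest to N2 and replicate 1 (circle) farthest.

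Abundant housekeeping complexes were lower too. Of 33 proteasome subunit genes 32 fell and 0 rose (median -0.69), with rpn-9, a lid subunit of the regulatory particle, at 132, 188 and 159 TPM against 327, 312 and 283 TPM in N2 (-0.95 ± 0.14, adjusted p = 8.1e-05). Of 81 cytosolic ribosomal protein genes tested 54 fell and 2 rose (median -0.36), and their summed level was 208594, 211307 and 209349 TPM in htp-3 against 272488, 241619 and 290395 TPM in N2. The ribosomal falls were small and the count depended on single libraries. Leaving out htp-3 replicates 1, 2 or 3 gave 33, 44 or 35 falls, leaving out N2 replicates 1, 2 or 3 gave 32, 62 or 28, and median-of-ratios scaling gave 78.

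The pair of ribosomal genes that rose had paralogues that fell. For ribosomal protein L11, rpl-11.1 (chromosome V) was at 1889.5, 2434 and 2523 TPM against 4434, 4481 and 4035 TPM in N2 (-0.93 ± 0.13, adjusted p = 5.0e-05), while rpl-11.2 (chromosome X) was at 1591, 1076 and 1332 TPM against 409, 453 and 484 TPM in N2 (1.55 ± 0.17, adjusted p = 6.8e-06). For the L23a class, rpl-25.2 (chromosome I) was at 1574, 1945 and 1609 TPM against 3261, 2568 and 3843 TPM in N2 (-0.90 ± 0.16, adjusted p = 3.4e-04) and rpl-25.1 (chromosome X) at 881, 606 and 704 TPM against 233, 237 and 333 TPM in N2 (1.45 ± 0.17, adjusted p = 1.3e-05). The same arrangement was seen for the succinate dehydrogenase flavoprotein: sdha-2 (chromosome I) was at 42.5, 78.7 and 51.1 TPM against 141, 144 and 107 TPM in N2 (-1.21 ± 0.20, adjusted p = 2.0e-04) and sdha-1 (chromosome X) at 76.1, 63.2 and 64.6 TPM against 30.7, 38.1 and 40.7 TPM in N2 (0.88 ± 0.16, adjusted p = 3.0e-04). In the respiratory chain and ATP synthase list as a whole, 7 of 35 genes rose and 6 fell, beside 41.5% and 24% of all genes, and median-of-ratios scaling gave 5 and 13.

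Sperm genes moved differently from oocyte genes. Of 27 major sperm protein (MSP) genes tested, out of 31 listed, 23 rose and 1 fell. The MSPs form the cytoskeleton of the crawling worm sperm, and their genes are nearly identical copies, so single genes are uncertain. A typical copy, msp-77, was at 28.7, 9.07 and 34.3 TPM against 1.66, 5.66 and 12.05 TPM in N2 (1.84 ± 0.56, adjusted p = 0.011), with N2 replicate 3 above htp-3 replicate 2, and its call was lost without replicate 1 of either strain or htp-3 replicate 3 (adjusted p from 0.051 to 0.066). The summed level of the family was 536, 212 and 739 TPM in htp-3 and 54.2, 119.9 and 337 TPM in N2, so both groups were spread widely and overlapped. The count of 23 rested on single libraries: it was 8 without htp-3 replicate 1, 2 without htp-3 replicate 3, 1 without N2 replicate 1 and 13 without N2 replicate 2, and 12 under median-of-ratios scaling. The copy msp-33 had a larger change, at 21.9, 9.59 and 34.6 TPM against 0, 0.078 and 0.0639 TPM in N2 (4.29 ± 0.51, adjusted p = 1.6e-05). It entered the test through htp-3 alone. Among other sperm genes, 16 of 29 tested rose and 6 fell, beside 41.5% and 24% of all genes, with 10 rises without htp-3 replicate 3 and 9 without N2 replicate 1. The falls included spe-44, a transcription factor of the spermatogenesis programme, at 9.48, 13.7 and 10.4 TPM against 22.9, 20.8 and 20.97 TPM in N2 (-0.90 ± 0.21, adjusted p = 0.0019), and fog-1, which specifies sperm fate (-0.74, adjusted p = 0.0087). Both families were lower in htp-3 than in spo-11, with 25 of 27 MSP genes and 25 of 29 other sperm genes below it, beside 27% of all genes. That contrast is given by TPM alone and would move with the scaling.

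The largest changes in TPM were rises of collagen and yolk genes. Collagens form the cuticle that the hypodermis secretes. The abundant adult collagen col-140 was at 12386, 7299 and 9841 TPM against 3047, 2396 and 2351 TPM in N2 (1.90 ± 0.19, adjusted p = 4.8e-06), and col-119 was at 10816, 6779 and 8490.4 TPM against 2750.4, 2814 and 2131 TPM in N2 (1.75 ± 0.19, adjusted p = 7.8e-06). Replicate 2 was the lowest htp-3 library in each and still well above the highest N2 library. Together the collagen genes of the list summed to 103437, 61036 and 87686 TPM in htp-3 and 27757, 24649.5 and 25246 TPM in N2, a ratio of 3.25 between the means. Of 92 collagen genes tested, out of 179 listed, 53 rose and 6 fell, beside 41.5% and 24% of all genes. The adult-specific col-19 was at 3884, 2352 and 3610.0 TPM against 630.1, 832 and 769 TPM in N2 (2.12 ± 0.18, adjusted p = 1.2e-06). The falls were col-17, at 0.73, 1.21 and 1.88 TPM against 2.66, 8.93 and 7.93 TPM in N2 (-1.63 ± 0.38, adjusted p = 0.0021), and col-90, dpy-13, rol-8, sqt-1 and sqt-2, and the falls numbered 3 without htp-3 replicate 1, which ended the calls of dpy-13, rol-8 and sqt-2. That of dpy-13 was also lost without htp-3 replicate 2 or N2 replicate 2 or 3 (adjusted p from 0.12 to 0.19), and that of rol-8 without N2 replicate 2 or 3. The dpy-13 call was lost as well with no filter on level, with a pseudocount of 0.1 or 5, and with limma-voom on rebuilt reads.

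Vitellogenins, the yolk proteins that the intestine makes for oocytes, did not move as one. The gene vit-2 was at 8242, 9125 and 5388 TPM against 2670.1, 3187 and 3729.7 TPM in N2 (1.22 ± 0.19, adjusted p = 1.1e-04) and vit-6 at 8239, 9621 and 5396 TPM against 2664, 3081 and 4000.1 TPM in N2 (1.23 ± 0.23, adjusted p = 3.7e-04), with replicate 3 the lowest htp-3 library and still above N2. A smaller rise was seen for vit-5, at 3932, 4586 and 2758 TPM against 2278, 2502 and 2546 TPM in N2 (0.59 ± 0.17, adjusted p = 0.0079), with an adjusted p of 0.53 under median-of-ratios scaling. The gene vit-3 fell, at 875, 1287 and 808 TPM against 1448, 1556 and 1626 TPM in N2 (-0.67 ± 0.27, adjusted p = 0.043). Its call was lost with no filter on level and when any library other than htp-3 replicate 2 was left out. Neither vit-1 (-0.10, adjusted p = 0.76) nor vit-4 (-0.10, adjusted p = 0.76) passed. Several of the vitellogenin genes are close in sequence, and reads shared between such genes could not be told apart.

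**Figure D4:**
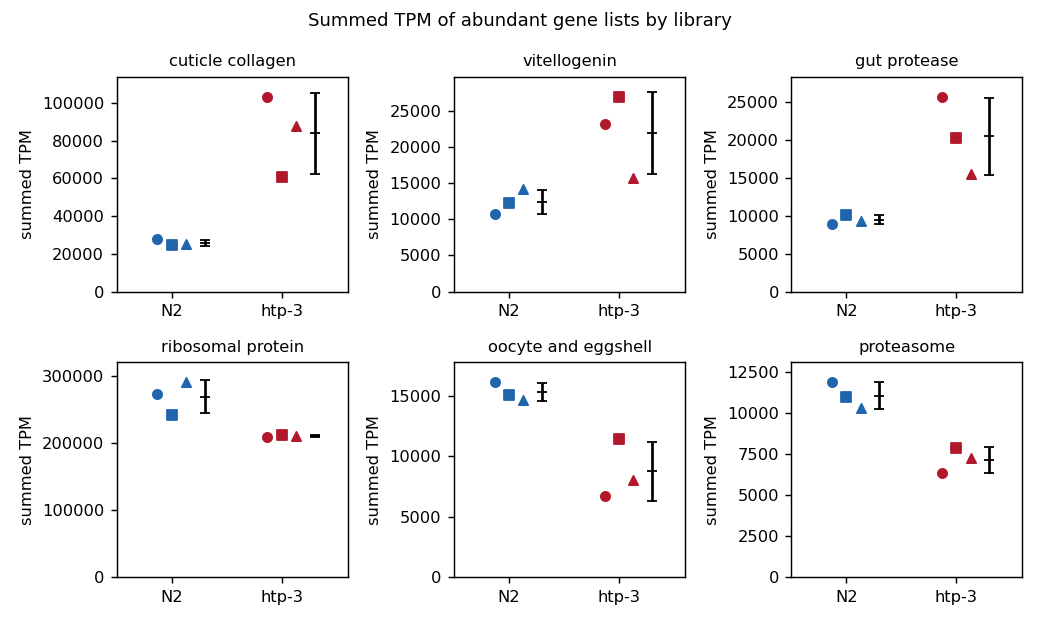
Summed TPM (y axis) of 6 gene lists in each N2 library (blue) and htp-3 library (red), with circle, square and triangle for replicates 1, 2 and 3 and the mean with SD (n = 3) beside them in black. Collagen, vitellogenin and gut protease sums are higher in every htp-3 library, and ribosomal protein, oocyte and proteasome sums are lower in every htp-3 library.

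Intestinal genes were higher. Of 25 intestine genes tested 18 rose and 2 fell (median 1.16), beside 41.5% and 24% of all genes, with ifb-2, an intermediate filament of the gut terminal web, at 149, 136 and 121 TPM against 25.5, 43.3 and 37.9 TPM in N2 (1.92 ± 0.20, adjusted p = 4.5e-06), and vha-6, a proton pump subunit of the apical gut membrane, at 354, 269 and 238 TPM against 72.3, 86.6 and 101 TPM in N2 (1.71 ± 0.20, adjusted p = 1.2e-05). The 2 falls, fat-7 and rfc-1, were both lost without htp-3 replicate 1 or without N2 replicate 2, fat-7 also without htp-3 replicate 3 and rfc-1 also without N2 replicate 1. Of 20 gut protease genes tested 14 rose and 0 fell. The aspartyl protease asp-1 was at 6118, 4699 and 3598 TPM against 1323, 1598 and 2021 TPM in N2 (1.53 ± 0.21, adjusted p = 4.1e-05), and asp-10 was at 675, 279 and 257 TPM against 46.9, 90.2 and 72.8 TPM in N2 (2.42 ± 0.32, adjusted p = 3.8e-05), with replicate 1 far above the others. Asp-10 was also higher than in dsb-2 (2.47, adjusted p = 3.3e-05) and spo-11 (3.65, adjusted p = 1.1e-06).

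Immune effector genes rose in 62 of 78 cases tested, out of 129 listed, and 2 fell, beside 41.5% and 24% of all genes. A single fall was left without htp-3 replicate 2, htp-3 replicate 3 or N2 replicate 2. Of the 78, 12 passed the filter through htp-3 alone. The gene hpo-6, linked to defence against pore-forming toxins, was at 113, 103 and 89.6 TPM against 3.88, 4.998 and 5.91 TPM in N2 (4.13 ± 0.20, adjusted p = 3.8e-09). The effector gene C17H12.8 was at 322, 289 and 294 TPM against 17.7, 33.1 and 24.4 TPM in N2 (3.58 ± 0.24, adjusted p = 1.9e-07), and dod-19, another gene downstream of DAF-16, was at 413, 319 and 283 TPM against 39.7, 41.3 and 32.8 TPM in N2 (3.11 ± 0.20, adjusted p = 1.4e-07). None of these groups overlapped, but hpo-6 was picked for this and the others for a small p. Over all genes tested, 42.1% had every htp-3 library above every N2 library. Of 70 C-type lectin genes tested, out of 243 listed and 8 of them through htp-3 alone, 54 rose and 3 fell (clec-87, clec-88 and clec-91), or 6 under median-of-ratios scaling. The most abundant of those named was clec-63, at 2638, 2004 and 1425 TPM against 362, 379 and 349 TPM in N2 (2.43 ± 0.19, adjusted p = 6.5e-07). In the list of the intracellular pathogen response, the programme induced by microsporidia and virus, 19 of 23 genes tested rose and 0 fell, and 9 of the 23 passed through htp-3 alone. The gene pals-24 was at 28.02, 23.7 and 27.2 TPM against 3.81, 8.02 and 4.34 TPM in N2 (2.15 ± 0.23, adjusted p = 6.7e-06). The Skp1-related skr-5 was at 19.7, 7.12 and 7.85 TPM against 0.192, 0.214 and 0.0585 TPM in N2 (3.31 ± 0.31, adjusted p = 2.2e-06) and was listed at 0 in spo-11, while pals-22, a negative regulator of the response, did not pass (0.36, adjusted p = 0.088). Skr-5 was among the genes that passed through htp-3 alone.

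Muscle and nerve genes rose broadly. Of 32 body-wall muscle genes tested 30 rose and 0 fell (median 1.05), beside 41.5% and 24% of all genes. The myosin heavy chain gene unc-54 was at 293, 257 and 215 TPM against 44.1, 42.9 and 53.5 TPM in N2 (2.41 ± 0.25, adjusted p = 5.8e-06) and the paramyosin gene unc-15 was at 240.4, 195 and 186 TPM against 67.9, 73.4 and 87.8 TPM in N2 (1.43 ± 0.20, adjusted p = 4.8e-05). Of 20 neuron genes 17 rose and 0 fell, among them the prohormone convertase gene egl-3, at 20.5, 18.6 and 21.1 TPM against 2.29, 4.22 and 5.71 TPM in N2 (2.11 ± 0.26, adjusted p = 1.9e-05), and the carboxypeptidase gene egl-21, at 61.5, 40.4 and 54.03 TPM against 12.4, 15.2 and 17.5 TPM in N2 (1.71 ± 0.19, adjusted p = 9.7e-06), which both mature neuropeptides. Of the neuropeptide genes themselves, 73 of 74 tested rose and 0 fell (median 1.58), with 3089, 2267 and 3198 TPM in sum in htp-3 and 895, 1239 and 1098 TPM in N2. For flp-9 the levels were 23.6, 13.9 and 24.2 TPM in htp-3 replicates 1 to 3 and 3.30, 4.09 and 3.35 TPM in the N2 replicates (2.20 ± 0.25, adjusted p = 1.1e-05). The gene nlp-52 did not pass, with overlapping groups (0.47 ± 0.32, adjusted p = 0.21). In the pharynx list 7 of 9 genes tested rose and 0 fell, 3 of the 9 having passed through htp-3 alone, in the excretory cell list 10 of 14 rose and 0 fell, and in the gonadal sheath and spermatheca list 17 of 23 rose and 2 fell, or 4 under median-of-ratios scaling. The 2 falls were inx-14 and inx-22, the innexins that act on the germ cell side of the junction with the sheath. Of 8 coelomocyte genes 3 rose and 3 fell, beside the same shares of 41.5% and 24%.

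Markers of male somatic cells were mostly at low level. Of 24 listed, 6 reached 1 TPM in some htp-3 library and 3 in some N2 library, and clec-164 was listed at 0 in all 6 libraries. The male sensory neuron genes lov-1 and pkd-2 were at no more than 0.0135 and 0.0452 TPM in any htp-3 library. The filter on 3 libraries let through 3 genes, nlp-8, lin-44 and mab-5, which hermaphrodites also express, and nlp-8 was at 9.76, 5.08 and 8.33 TPM against 0.686, 1.71 and 1.78 TPM in N2 (1.86 ± 0.25, adjusted p = 4.0e-05). The whole list summed to 36.96, 19.2 and 20.03 TPM in htp-3 and 4.48, 7.17 and 7.33 TPM in N2, with no overlap. The largest single part of the sum in htp-3 replicate 1 was ins-31, at 17.2 TPM, which the filter left out. The part of male cells in the other differences was not tested.

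Most tested genes of the detoxification families rose, beside 41.5% of all genes, and lipid lists were mixed. Among genes with a mean under 5 TPM 70.8% rose. No list was matched by level, so rises in families with many genes of low level, nuclear hormone receptors included, cannot be told apart from that share. Of 82 glutathione and glucuronosyl transferase genes tested, 9 of them through htp-3 alone, 63 rose and 4 fell, with 2 falls without replicate 1 of either strain and 7 under median-of-ratios scaling. Among the rises was gst-24, at 18.99, 22.2 and 26.3 TPM against 2.26, 1.83 and 1.30 TPM in N2 (3.07 ± 0.23, adjusted p = 4.5e-07). Of 38 cytochrome P450 genes tested, 5 of them through htp-3 alone, 26 rose and 5 fell, and cyp-31A5, a relative of the P450 genes needed for the lipid layer of the eggshell, was among the falls at 29.97, 53.9 and 45.1 TPM against 110.3, 99.1 and 81.9 TPM in N2 (-1.19 ± 0.20, adjusted p = 1.8e-04). The desaturase gene fat-2 was at 1340.5, 940.0 and 935 TPM against 449, 449.7 and 329 TPM in N2 (1.38 ± 0.18, adjusted p = 2.8e-05) and fat-3 at 160.1, 177 and 199 TPM against 56.1, 83.7 and 56.2 TPM in N2 (1.46 ± 0.21, adjusted p = 7.5e-05), while the stearoyl-CoA desaturase gene fat-7 was at 121, 119.6 and 125 TPM against 183, 237 and 171 TPM in N2 (-0.68 ± 0.25, adjusted p = 0.026). In the desaturase and elongase list 6 of 14 genes rose and 2 fell, near the share of rises over all genes, with 2 and 4 under median-of-ratios scaling. A single fall was left there when any htp-3 library or N2 replicate 3 was left out, and 0 without N2 replicate 2. The lipid-binding protein gene lbp-5 was at 140.2, 101 and 133 TPM against 19.2, 30.3 and 24.7 TPM in N2 (2.30 ± 0.20, adjusted p = 1.4e-06), and lbp-9 moved the other way, at 596, 755 and 789.8 TPM against 1588, 1510.1 and 1397 TPM in N2 (-1.08 ± 0.16, adjusted p = 6.7e-05). In the lipase and fatty acid oxidation list 53 of 100 rose and 14 fell, with 29 and 25 under median-of-ratios scaling and 9 falls without htp-3 replicate 3 or N2 replicate 2. Of 157 nuclear hormone receptor genes tested, out of 274 listed, 117 rose and 4 fell, and 27 of them passed through htp-3 alone. Their falls numbered 1 without htp-3 replicate 1 or N2 replicate 2, 2 without htp-3 replicate 3 or N2 replicate 1, 7 without htp-3 replicate 2 and 17 under median-of-ratios scaling.

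Chaperone and stress lists gave weaker and less stable counts. Of 22 cytosolic heat shock genes 12 rose and 4 fell, beside 41.5% and 24% of all genes, but rises numbered 6 without htp-3 replicate 2, 5 without htp-3 replicate 3, 6 without N2 replicate 1, 5 without N2 replicate 3 and 4 under median-of-ratios scaling, where 7 fell. The small heat shock gene hsp-17 was at 89.8, 78.2 and 89.6 TPM against 21.6, 24.8 and 18.2 TPM in N2 (1.95 ± 0.20, adjusted p = 5.8e-06), and the HSP90 gene daf-21 was at 1266, 1965 and 1404 TPM against 2849, 2416 and 2465 TPM in N2 (-0.76 ± 0.15, adjusted p = 5.8e-04). In the ER list 8 of 23 rose and 5 fell, or 3 and 10 under median-of-ratios scaling. In the mitochondrial list 2 of 13 rose and 1 fell, or 1 and 4 under that scaling, and falls also numbered 4 without htp-3 replicate 2. There hsp-6 (-0.51, adjusted p = 0.079) and hsp-60 (-0.50, adjusted p = 0.18), the standard reporters of mitochondrial stress, did not pass. In the insulin signalling list the receptor gene daf-2 (0.46, adjusted p = 0.15) and the transcription factor gene daf-16 (0.30, adjusted p = 0.34) did not pass either, while the DAF-16-antagonised factor gene pqm-1 was at 46.5, 42.04 and 41.98 TPM against 9.43, 13.7 and 10.3 TPM in N2 (1.89 ± 0.23, adjusted p = 1.8e-05). Of 23 DAF-16 target genes tested 13 rose and 1 fell, with 8 rises without N2 replicate 1, 7 without N2 replicate 3 and 5 under median-of-ratios scaling, where 3 fell.

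The chromosomes contributed unequally. On the X chromosome 67.2% of 1577 genes tested rose and 4.69% fell, and on chromosome V 52.2% of 2118 rose. On chromosome I 26.8% of 1916 rose and 32.3% fell, and on chromosome III 28.7% of 1898 rose and 31.7% fell. Median-of-ratios scaling lowered the share of rises everywhere but left X highest and I lowest among the nuclear chromosomes, with rises of 49.97% and 20.1%. The 12 mitochondrial genes tested were 11 rises and 0 falls by TPM and 2 rises and 0 falls under that scaling. The genes that encode the dosage compensation machinery of the X gave 1 rise (sdc-3) and 2 falls (dpy-30 and capg-1) among 10 tested; without htp-3 replicate 1 these numbers were 2 and 1, without N2 replicate 2 both were 2, the capg-1 call was also lost without replicate 3 of htp-3 or replicate 1 of N2, and 4 fell under median-of-ratios scaling. Their part in the shares on X was not tested.

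**Figure D5:**
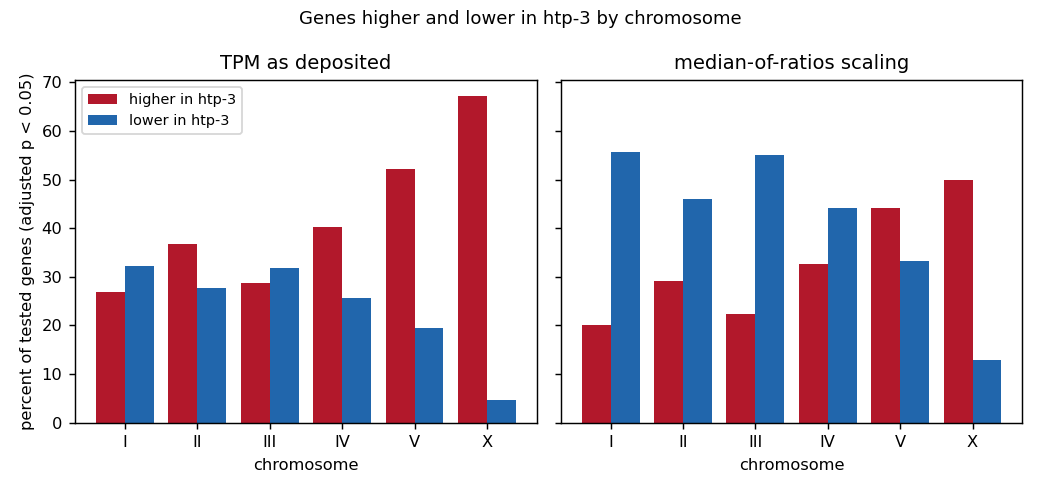
Percent of tested genes on each nuclear chromosome (x axis) that were higher (red) or lower (blue) in htp-3 at an adjusted p under 0.05, with TPM as deposited (left) and after median-of-ratios scaling (right). On X 67.2% of genes were higher with TPM and 49.97% with the other scaling, the tallest red bar in both panels.

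Set directly against the other mutants by TPM, htp-3 differed widely from dsb-2 and less from spo-11. These contrasts are given by TPM alone. The median-of-ratios factors of replicates 1 to 3 were 1.57, 1.34 and 1.42 in spo-11 and 0.978, 1.09 and 1.19 in htp-3. In dsb-2 they were 0.758, 0.896 and 0.770. That scaling would shift htp-3 upward against spo-11 and downward against dsb-2, and the counts and medians given here with it. Against dsb-2, 4942 genes were higher (43.5%) and 3178 lower (28%). Against spo-11, 1035 were higher (9.12%) and 3066 lower (27%). The genes that differed in one direction from N2, dsb-2 and spo-11 numbered 323 higher (2.85%) and 106 lower (0.934%). Besides dpy-20, asp-10 and skr-5, the higher group held the lectin clec-169, at 12.8, 57.6 and 30.1 TPM against 0.44, 1.55 and 1.17 TPM in N2 (htp-3 minus spo-11 2.46, adjusted p = 3.5e-04), and the ABC transporter pgp-1, at 11.5, 30.2 and 14.3 TPM against 1.76, 2.21 and 1.49 TPM in N2 (htp-3 minus spo-11 2.08, adjusted p = 5.7e-05). The lower group held htp-3, Y49E10.16, msp-40 and several histone genes, among them his-62 (htp-3 minus spo-11 -1.54, adjusted p = 4.9e-04). The medians of the direct difference from spo-11 were 0.18 for oocyte and eggshell genes, 0.12 for replication genes and 0.05 for P granule genes. Both sperm lists lay far lower in htp-3, with medians of -3.35 for MSP genes and -3.28 for the others. Somatic lists were uneven. Medians were -0.52 for body-wall muscle, -0.63 for neuropeptides and -1.09 for collagens, but 0.08 for intestine genes, of which 7 of 25 were higher and 5 lower, and 0.30 for gut proteases, of which 7 of 20 were higher and 5 lower. Vitellogenins were higher in htp-3 for 5 of 6 genes, with a median of 1.43.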

How the data were processed

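Polyadenylated RNA of whole animals was sequenced for 3 htp-3 and 3 N2 libraries, and the 3 dsb-2 and 3 spo-11 libraries of the series entered the same fit. Each table deposited by the authors lists 20222 genes with TPM and RPKM values, per the file headers, on the genome build WBcel235, per the submitters' processing notes. Aligner, counter and strandedness: not given in the sources used here, so a read's assignment among near-identical, overlapping or antisense genes is uncertain. The depth of each library was recovered from the steps between low RPKM values. With it, every one of the 18042 genes detected in 4 or more libraries gave whole reads to within 0.05.

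Genes with at least 1 TPM in 3 or more of the 6 libraries were tested on log2(TPM + 1) with limma 3.58.1 (R 4.3.3; trended variance prior). The 12 libraries were fitted together, each strain with its own mean and 3 libraries, so that they share an estimate of spread. Calls were made at a Benjamini-Hochberg adjusted p under 0.05 over the 11350 genes. The same fit gave htp-3 minus dsb-2 and htp-3 minus spo-11. The series text calls the libraries biological replicates, and p-values measure only the spread between them.

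The genes and the 52 gene lists were chosen with earlier results of these data known. Named genes are the mutated genes, the 15 largest rises and falls whose groups do not overlap with at least 5 TPM in the higher group, list members (all where at most 12 were tested, otherwise mostly from the 6 with the smallest p), genes listed at 0 in one group and the largest TPM differences. The others, such as rec-8, msh-5, glp-1, rme-2, cbd-1, ced-1, egl-1, ceh-18, fog-1, daf-2, daf-16, pals-22 and nlp-52, and genes given as the few members of a count, were chosen after their values were seen. Alternatives were scaling by median of ratios or upper quartile, a minimum of 5 TPM or none, the 6 libraries alone, a replicate block, a 2-fold minimum, leaving out 1 library at a time, pseudocounts of 0.1 and 5, RPKM, and limma-voom on the rebuilt reads. Gene positions are those of the authors' tables, counted from 1. Where a current symbol differs, the name in the tables is printed.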

Additional observations from a re-analysis of the deposited data

How the results depend on the processing

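Rises numbered 4706 and falls 2729. Leaving out 1 library gave 4136 to 4775 rises and 1849 to 3319 falls. A minimum of 5 TPM gave 2771 rises, median-of-ratios scaling 4748 falls, and a 2-fold minimum 2798 rises and 277 falls; the first and the last of these test or call fewer genes by construction. The other alternatives moved neither count by more than 1.5 times. Same-numbered libraries of the strains did not deviate together (r = -0.117, 0.0512 and 0.147 across genes, and not every library correlated best with its own number), and the replicate block gave 4587 rises and 2192 falls. Of 129 called genes named, 118 kept direction and call under every alternative other than the 2-fold minimum, and 87 under that too. No called gene named changed sign. Genes without a call did: median-of-ratios scaling gave -0.11 for daf-16, -0.23 for msh-5 and -0.14 for spo-11. Leaving out 1 library gave -0.54 to 0.27 for glp-1, -0.18 to 0.50 for msh-5, -0.29 to 0.071 for vit-1 and -0.29 to 0.11 for vit-4. The cause was not tested. In the htp-3 and N2 libraries 1 read on 1 kilobase of exon was worth 0.0293 to 0.0358 TPM, which limits genes near the filter.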

Other observations

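Of 106 F-box genes tested, out of 333 listed and 14 of them through htp-3 alone, 61 rose and 16 fell, against 41.5% and 24% of all genes, and 10 fell without htp-3 replicate 1. Among genes with a mean under 5 TPM 70.8% rose, and the list was not matched by level. F-box proteins select targets for ubiquitin ligases. The pair fbxa-188 and fbxa-189 was at 1.90, 1.58 and 1.73 TPM against 0.118, 0.297 and 0.189 TPM in N2 and at 3.39, 3.05 and 3.49 TPM against 0.36, 0.847 and 0.528 TPM in N2, and both were listed at 0 in spo-11 animals. In the MATH and BTB domain family 23 of 60 genes tested rose and 16 fell, close to the shares over all genes, with a median of 0.03 and 25 falls under median-of-ratios scaling; 8 of the 60 passed through htp-3 alone. They include bath-41, at 57.8, 90.6 and 75.4 TPM against 186, 164 and 155 TPM in N2 (-1.18 ± 0.16, adjusted p = 4.2e-05), and bath-47, at 6.64, 4.998 and 3.39 TPM against 0.656, 1.04 and 0.521 TPM in N2 (1.76 ± 0.26, adjusted p = 8.1e-05). Among 30 Hedgehog-related and Patched-related genes tested, which act in cuticle formation and moulting, 24 rose and 1 fell, with ptr-8 at 12.3, 11.5 and 17.4 TPM against 3.15, 3.91 and 2.18 TPM in N2 (1.85 ± 0.25, adjusted p = 4.1e-05), and 4 of the 30 passed through htp-3 alone.

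Genes of the early embryo list moved in both directions. The maternal RNA-binding protein gene cey-2 was at 1290.1, 2197 and 1577 TPM against 4358, 3604 and 3303 TPM in N2 (-1.18 ± 0.17, adjusted p = 7.6e-05), and the germline fate gene pie-1 was at 48.1, 83.9 and 54.3 TPM against 126, 109.5 and 127 TPM in N2 (-0.99 ± 0.20, adjusted p = 8.0e-04). The gut factor gene elt-7, which the intestine keeps expressing, was at 11.9, 11.6 and 9.50 TPM against 4.01, 4.87 and 3.85 TPM in N2 (1.19 ± 0.20, adjusted p = 1.6e-04). Of 13 tested 4 rose and 6 fell, beside 41.5% and 24% of all genes, and 10 of its 23 listed genes did not reach the filter.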
